A study of Mus musculus with 18 samples.

Results

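Genes spanning 500 kb or more from the start to the end of the transcribed region, introns included, were described in nuclear RNA of mouse liver. The count table gave 193 such genes among 20105, and 187 of them are the subject here. Rora, Esrrg, Pde4d, Pde4b, Rarb, Grid1 and Slit3 were left out, of which 6 reach that span. The 187 spans ran from 501754 to 2270659 bases, the longest being Ptprd, with a median of 716.1 kb against 16.9 kb over all genes in the table. Edil3 at 501.8 kb, Car10 at 502.5 kb and Dock1 at 503 kb stood just inside the limit. Ank3 at 493.7 kb, Abca13 at 492.3 kb and Dnm3 at 490.7 kb stood just outside it.

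RNA was sequenced from liver nuclei of 6 female HEP-INTACT mice, a line whose hepatocyte nuclei carry a tag, and all groups share that genotype. The 3 fasted mice had gone 16 h without food, counted from zeitgeber time 12, when the active phase of a mouse begins. The 3 fed mice had free access to food and were sampled at the same time of day. Each mouse gave 3 libraries, namely nuclei pulled down by the tag (IP) from fresh liver, the nuclei left in the supernatant of that IP, and nuclei pulled down from frozen liver. The 6 groups of 3 libraries are therefore fasted and fed fresh IP, fasted and fed frozen IP, and fasted and fed supernatant, and the 3 kinds of library of 1 feeding state come from the same animals. The sources used here do not name the promoter that drives the tag. All 14 hepatocyte markers examined were higher in IP than in supernatant, and all 12 endothelial, all 10 stellate and fibroblast and all 10 Kupffer cell and macrophage markers were lower in IP. Of 10 lymphocyte markers 1 was higher and 9 lower, and of 5 tested cholangiocyte markers 3 were higher and 1 lower.

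RNA polymerase II needs many minutes to hours to cross a gene of this size, so in nuclear RNA most of what is read from such a gene is intron of transcripts still being made. Very long genes are enriched for proteins of synapses, cell adhesion and axon guidance, and several of them, Fhit and Wwox among them, lie at common fragile sites in human cells. Their expression is known to depend on topoisomerases and on factors that keep the polymerase elongating. In hepatocytes only some of these genes are known to be strongly transcribed.

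In the GENCODE vM21 annotation of the same genome, 176 of the 187 genes (94.1%) were found. Their median was 18 exons, exons made up 0.664% of the span at the median, and the longest intron had a median of 233 kb. The 17361 of all genes that were found had a median of 8 exons, 13.2% of the span in exons and a longest intron of 6.2 kb. Fhit, a hydrolase of diadenosine triphosphate on chromosome 14 (9550094 to 11162035, minus strand, mm10), has 9 exons with 981 bases in all, which is 0.0609% of its span, and an intron of 551 kb. Wwox, a WW-domain oxidoreductase on chromosome 8 (114439652 to 115352712, plus strand), likewise has 9 exons and an intron of 639 kb in a span of 913 kb. The sources used here do not say whether reads were counted over exons or over the whole span, and levels per kb below are per kb of span. Another gene of the table overlaps 21 of the 187 genes, in each case on the opposite strand, and 152 overlap another GENCODE gene. The strand setting of the counting was not given either, so Grip1, whose overlapping gene Helb had 348% of its level, and Cacna2d3, Cacna1c and Astn2 are uncertain.

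Per kb of span most of the 187 genes were below the median gene of the table, and per gene they were not. Levels are given as CPM, counts scaled to library size. In fresh IP, 110 of them (58.8%) reached 1 CPM in fasted and 114 (61%) in fed livers, against 55% and 55.4% of all genes. In frozen IP 116 and 119 reached it, and in supernatant 133 in each state. Per gene, the median of the 187 genes was 2.78 CPM in fasted and 3.74 CPM in fed fresh IP, against 2.61 and 2.83 CPM over all genes, and in supernatant 21.1 and 21.8 CPM, against 5.13 and 5.13 CPM. Per kb of span, the median of the 187 genes was 0.0033 CPM in fasted and 0.00436 CPM in fed fresh IP, against 0.147 and 0.162 CPM over all genes. In supernatant it was 0.0246 CPM in fasted and 0.0231 CPM in fed livers, against 0.339 and 0.331 CPM over all genes. Only 42 of the 187 genes in fasted and 44 in fed fresh IP stood above the median per kb of all genes. No gene of the set had 0 counts in all 18 libraries. The low-count filter passed 154 of them in fresh IP, 157 in frozen IP and 163 in supernatant. It passed 144 in both fresh fractions, 10 in IP only and 19 in supernatant only. Another 11 genes, among them Adgrb3, Cntnap5b, Csmd2, Fstl5, Gm21949, Grik2, Grm5, Lrrtm4, Mdga2 and Mgat4c, passed in none of the comparisons.

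Dpyd, the first enzyme of pyrimidine breakdown, led in hepatocyte nuclei. Per kb of span it had 12.1 ± 1.11 CPM in fasted and 12.1 ± 2.03 CPM in fed fresh IP (SD, n = 3 each), which for the whole gene is 10542 ± 966 CPM and 10496 ± 1768 CPM. Immp2l, a subunit of a mitochondrial inner membrane peptidase, followed with 7.58 ± 0.448 and 8.13 ± 1.19 CPM per kb. Their fasted and fed values lie within each other's spread. The transcription factor gene Nfia had 5.50 ± 0.496 CPM per kb in fasted and 5.61 ± 0.559 CPM per kb in fed fresh IP. Zbtb20, a zinc finger repressor known in liver for silencing alpha-fetoprotein, had 3.84 ± 0.339 and 5.38 ± 0.67 CPM per kb. Foxp1, Pard3, Magi1 and Ptprk completed the 8 highest in IP at 2.22 to 3.53 CPM per kb in fasted livers, and their order among neighbours is within the spread between libraries.

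The supernatant had another set at the top. Slc9a9, a sodium and proton exchanger of endosomes, had 3.71 ± 0.17 CPM per kb in fasted and 4.32 ± 0.404 CPM per kb in fed supernatant. The receptor phosphatase Ptprm had 3.49 ± 0.523 and 3.87 ± 1.3 CPM per kb there, the uncharacterised transcript 1700112E06Rik 2.72 ± 0.237 and 3.13 ± 0.536, and the Rac activator Dock2 2.49 ± 0.188 and 3.02 ± 0.502. In the plot of levels per kb by fraction, these genes lie far lower in IP, whereas Foxp1 and Zbtb20 are among the 8 highest genes of both fractions.

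**Figure D1:**
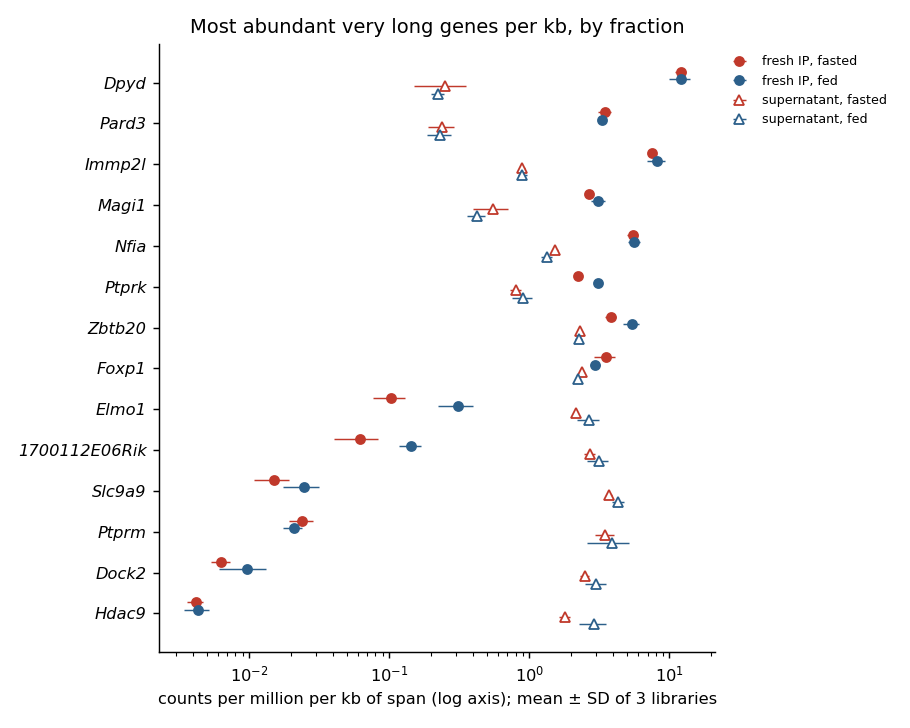
CPM per kb of gene span (log axis) of the 8 very long genes highest in fresh IP and the 8 highest in supernatant, as mean ± SD of 3 libraries; filled circles are fresh IP and open triangles supernatant, fasted in red above fed in blue. Dpyd stands at 12.1 in fasted and 12.1 in fed IP, and Slc9a9 at 3.71 in fasted and 4.32 in fed supernatant.

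Together the 187 genes took 4.90 ± 0.226% of all counts in fasted and 5.49 ± 0.239% in fed fresh IP (SD, n = 3 each). Frozen IP gave 4.94 ± 0.167% in fasted and 5.84 ± 0.553% in fed livers, and supernatant 5.06 ± 0.183% and 5.05 ± 0.304%. Fasted and fed libraries did not overlap in fresh IP (4.65 to 5.08% against 5.21 to 5.66%) or in frozen IP (4.79 to 5.12% against 5.50 to 6.48%), and they overlapped in supernatant. With the 100 most abundant genes of each library left out, the share was 1.75% in fasted and 1.63% in fed fresh IP. In frozen IP it was 1.75% and 1.81%. Those 100 genes were taken library by library and can differ, so these shares do not show what the order rested on. The 10 brightest of the 187 genes held 58.3 to 63.1% of the set's counts in IP libraries and 39.0 to 47.8% in supernatant libraries. Total counts per library ran from 33242961 to 54434263 in fasted and from 25675086 to 54166985 in fed fresh IP. They ran from 41178186 to 43814180 in fasted and from 13828945 to 49027343 in fed frozen IP, and from 34247281 to 37188834 in fasted and from 28315372 to 34770217 in fed supernatant.

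Most genes of the set, like most of the whole table, differed between the fractions. Of 173 genes tested, 52 were higher and 99 lower in IP than in supernatant by edgeR's quasi-likelihood test at a Benjamini-Hochberg adjusted p under 0.05, a share of 87.3%. Over all 14322 genes tested, 85.1% were called, 42% higher and 43% lower. By direction the set had 30.1% higher and 57.2% lower. The next shorter class, 250 to 500 kb, was near it with 34.4% and 56.9%. Of the 52 higher genes 46 passed the low-count filter within supernatant, and of the 99 lower genes 83 passed it within fresh IP. Over all genes 5674 of 6016 and 4430 of 6165 did. The direction of the others was fixed by the filter, which weighs on these shares, the median and the role lists below. The median log2 difference, IP minus supernatant over both feeding states, was -1.25 for the set and -0.00 for all genes. Scaling by total counts instead of TMM moved the median of all genes to -0.34, the set's median to -1.58 and its counts to 44 higher and 102 lower. In bulk libraries such as these, fewer nuclei of a type and less RNA per nucleus cannot be told apart.

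Higher in hepatocyte nuclei were genes with very different textbook roles. Erc2, a scaffold of the presynaptic active zone, was higher in IP by 5.72 ± 0.14 on the log2 scale (± SE of the difference of group means, adjusted p = 4.3e-12). Dpyd was higher by 5.63 ± 0.18 (adjusted p = 4.8e-11), and Syt1, the calcium sensor of synaptic vesicles, by 5.54 ± 0.18 (adjusted p = 1.7e-11). Syt1 stood at 67.5 to 77.2 CPM in fasted and 121 to 178 CPM in fed fresh IP. The receptor phosphatase Ptprd was higher in IP by 5.38 ± 0.15, the neuregulin receptor Erbb4 by 5.31 ± 0.16, and Pkhd1, which encodes fibrocystin of primary cilia, by 4.95 ± 0.28. Sgcz, a sarcoglycan, was higher by 4.84 ± 0.32 and the forkhead factor Foxp2 by 4.77 ± 0.19. The adjusted p of the last 5 was 2.7e-08 or less.

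Among genes lower in IP are several known for roles in leukocytes. Hdac9, a class IIa histone deacetylase, had 4.15, 3.24 and 3.45 CPM in fasted and 2.94, 3.91 and 4.37 CPM in fed fresh IP, against 1448 to 1722 CPM in fasted and 2045 to 3107 CPM in fed supernatant. Its difference was -9.13 ± 0.14 (adjusted p = 7.1e-13), the largest fall in the set. March1, a ubiquitin ligase of antigen-presenting cells, differed by -8.89 ± 0.24. The leukocyte Rac activator Dock2 differed by -8.49 ± 0.17, the Rac inhibitor Arhgap15 by -8.16 ± 0.18, and Slc9a9 by -7.74 ± 0.18. Ptprm at -7.41 ± 0.18, the lipid phosphatase Inpp4b at -7.32 ± 0.19 and the calcium-binding membrane protein Mctp1 at -7.18 ± 0.20 followed, all with adjusted p of 1.4e-11 or less. All 86 calls of named genes in this comparison held when any 1 library was left out.

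The role lists are read against the 42% higher and 43% lower over all genes. Of 25 tested genes of synaptic and neural adhesion, 16 were lower and 2 higher in IP (median -2.59), with Tenm4, a teneurin, at -7.10. Ion channels and their partners had 12 lower and 3 higher of 16 (median -2.92), the 3 being Kcnma1, Kcnip4 and Fgf14. Kcnip4 and Fgf14 passed the low-count filter within IP only, and 14 of the 16 passed it within supernatant against 10 within fresh IP, so part of these counts is fixed by the filter. Axon guidance genes had 3 lower and 1 higher of 5, cadherins and catenins 5 lower and 1 higher of 7, and kinases, phosphodiesterases and lipid signalling 4 lower and 1 higher of 6, the higher one being Plcb1, a phospholipase C, at 3.97 ± 0.16. Enzymes and transporters had 8 higher and 5 lower of 14 (median 0.77), receptor protein tyrosine phosphatases 3 of each among 6, and transcription regulators 5 of each among 11. Scaffold proteins had 4 higher and 6 lower of 10. GTPase regulators had 2 higher and 4 lower of 6, cytoskeleton and traffic genes 4 higher and 3 lower of 8, and proteoglycans, matrix and large surface proteins 4 of each among 8. Both growth factor receptors tested, Erbb4 and Alk, were higher, and the ligand Nrg3, which passed the filter within supernatant but not within fresh IP, was lower. Of 3 neurotransmitter receptors 2 were higher and 1 lower, and of 3 RNA-binding proteins 2 were lower. The 42 tested genes in none of these lists had 10 higher and 25 lower. The direction of 1 named gene depended on scaling, as Vps13b, a lipid transfer protein, was at 0.32 ± 0.04 (adjusted p = 0.00056) with TMM and at -0.02 with total counts.

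More of these genes fell than rose with fasting in hepatocyte nuclei. In fresh IP, 6 of 154 genes tested were higher and 20 lower in fasted livers, a share of 16.9%, of 3.9% and 13% by direction. Over all 12548 genes tested, 25.1% were called, 12.4% higher and 12.6% lower. The median log2 change was -0.30 for the set and 0.01 for all genes, and 41 of the 154 genes (26.6%) had a positive change, against 50.9% of all genes. Leaving out fasted library A took the count of called genes to 13, and 12 of the 26 calls held whichever library was left out. Leaving out 1 library moved the set's median between -0.40 and -0.25. The called share was below that of the whole table for higher genes and near it for lower genes.

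Rad51b, a gene of homologous recombination repair, had the smallest adjusted p among the genes that rose in fresh IP (chromosome 12, 79297282 to 79814690, plus strand). It had 536, 479 and 368 CPM in fasted fresh IP, against 96.5, 68.5 and 141 CPM in fed fresh IP, and 529, 511 and 355 CPM in fasted frozen IP, against 86.4, 63.9 and 122 CPM in fed frozen IP. All 6 fasted IP libraries stood above all 6 fed ones, by a wide gap. The log2 change was 2.19 ± 0.34 in fresh IP (adjusted p = 0.0024) and 2.36 ± 0.33 in frozen IP (adjusted p = 0.0014). In the authors' deposited table the change of Rad51b was 2.12 in fresh IP (adjusted p = 2.43e-13). No other gene of the table or of GENCODE overlaps it.

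Dlgap2, a scaffold of the postsynaptic density (chromosome 8, 14095875 to 14847686, plus strand), rose by more, at a far lower level. Its fasted fresh IP libraries had 15.1, 11.4 and 12.005 CPM, against 2.55, 3.83 and 0.829 CPM in fed fresh IP. The groups were well apart, and the change was 2.48 ± 0.65 in fresh IP (adjusted p = 0.0081) and 2.93 ± 0.40 in frozen IP (adjusted p = 0.0013). Celf2, an RNA-binding regulator of splicing (chromosome 2, 6539699 to 7396198, minus strand), had 563, 498 and 400 CPM in fasted and 257, 191 and 192 CPM in fed fresh IP. The change of Celf2 was 1.21 ± 0.20 in fresh IP (adjusted p = 0.0039) and 1.14 ± 0.20 in frozen IP (adjusted p = 0.0052), and groups did not overlap in either. Pcdh11x, a protocadherin of the X chromosome, had 33.5, 23.8 and 24.4 CPM in fasted and 12.5, 8.31 and 13.9 CPM in fed fresh IP. It changed by 1.25 ± 0.28 in fresh and 1.19 ± 0.21 in frozen IP (adjusted p = 0.0081 and 0.006). The other 2 genes called higher in fresh IP, Foxp2 at 0.59 ± 0.18 (adjusted p = 0.034) and the receptor-binding scaffold Grip1 at 0.79 ± 0.20 (adjusted p = 0.02), were not called in frozen IP, where Kcnma1, the large-conductance calcium-activated potassium channel, was called instead at 1.28 ± 0.32 (adjusted p = 0.011). Foxp2 lost its call in 5 of 6 fits with 1 library left out, with an adjusted p of 0.0892 without fed library A, and Grip1 in 3 of 6, with 0.0515 without fasted library C.

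Among the genes that fell, Erbb4 (chromosome 1, 68032187 to 69108059, minus strand) is over 1 Mb long and abundant. Erbb4 had 395, 558 and 405 CPM in fasted fresh IP, against 1302, 1220 and 1394 CPM in fed fresh IP, and 401, 473 and 352 CPM in fasted frozen IP, against 1048, 1450 and 1401 CPM in fed frozen IP. The fed libraries lay well above the fasted ones in each preparation. Its change was -1.51 ± 0.17 in fresh IP (adjusted p = 0.0016) and -1.67 ± 0.19 in frozen IP (adjusted p = 0.0014). Pkhd1 had 245, 225 and 195 CPM in fasted and 578, 555 and 564 CPM in fed fresh IP. With little spread within groups, the change of Pkhd1 was -1.33 ± 0.10 in fresh IP (adjusted p = 0.0011) and -1.22 ± 0.14 in frozen IP (adjusted p = 0.0023). Pkhd1 is also a cholangiocyte marker, and the 7 markers of that list summed to 197 to 248 CPM in fasted and 561 to 581 CPM in fed fresh IP, nearly all of it Pkhd1 itself.

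Promoters are shown for the largest rise and the largest fall among genes higher in IP with at least 100 CPM in fresh IP, Rad51b and Erbb4, which were picked after their values were seen, and for Sorcs3, the largest fall of all. Each is the RefSeq sequence of GRCm38.p6 from 250 bases before to 50 after the annotated start, 5′ to 3′ on the gene's strand, with CG dinucleotides in capitals.
Rad51b: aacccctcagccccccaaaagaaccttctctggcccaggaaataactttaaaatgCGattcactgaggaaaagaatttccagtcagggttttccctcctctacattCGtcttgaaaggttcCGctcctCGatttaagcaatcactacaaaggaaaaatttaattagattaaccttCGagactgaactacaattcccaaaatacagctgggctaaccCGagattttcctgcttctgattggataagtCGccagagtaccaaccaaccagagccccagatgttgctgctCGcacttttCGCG
Erbb4: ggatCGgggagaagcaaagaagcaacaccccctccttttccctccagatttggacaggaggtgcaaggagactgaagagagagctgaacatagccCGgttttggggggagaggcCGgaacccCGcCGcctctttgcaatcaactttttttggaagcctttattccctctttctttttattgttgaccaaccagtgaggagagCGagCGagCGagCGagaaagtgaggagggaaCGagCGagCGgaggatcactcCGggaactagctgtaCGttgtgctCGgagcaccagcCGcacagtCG
Sorcs3: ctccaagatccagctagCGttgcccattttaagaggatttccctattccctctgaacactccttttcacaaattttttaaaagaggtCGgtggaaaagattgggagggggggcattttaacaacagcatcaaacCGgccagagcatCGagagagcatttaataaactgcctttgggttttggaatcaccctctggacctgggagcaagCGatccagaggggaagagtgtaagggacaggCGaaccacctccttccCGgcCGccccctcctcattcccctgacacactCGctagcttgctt
Their positions are chr12:79297032-79297331 on the plus strand for Rad51b, chr1:69108010-69108309 on the minus strand for Erbb4 and chr19:48205775-48206074 on the plus strand for Sorcs3. They hold 10, 17 and 9 CG dinucleotides in this order, against a median of 12 over 233 promoters of 146 of the 187 genes and of 7 over all 32851 promoters. The letters of the cAMP response element TGACGTCA, of TGACGT, which TGACGTCA contains, of the E-box CACGTG, of the peroxisome proliferator response element, written as AGGTCA, any base and AGGTCA again, and of TATAAA were searched on both strands, and none of them is in these 3 windows. They were in 0.429%, 6.44%, 3.43%, 0% and 10.7% of the set's promoters in that order, and in 1.79%, 7.51%, 7.15%, 0.0396% and 13.6% of all promoters. For Dlgap2 no sequence is printed.

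**Figure D2:**
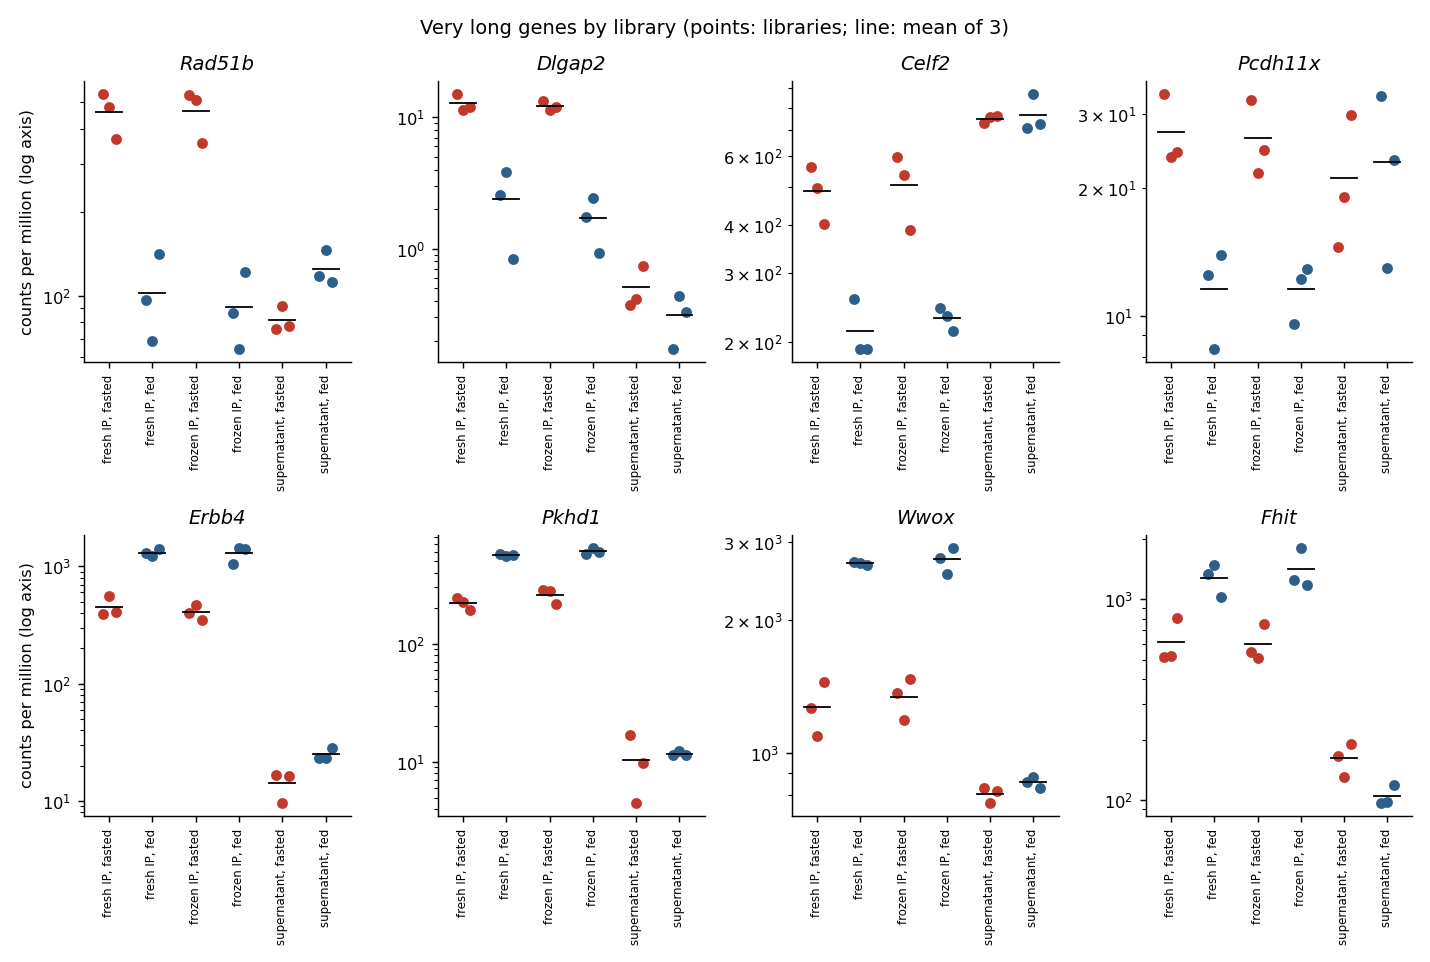
CPM (log axis) of 8 very long genes in each of the 18 libraries, fasted in red left of fed in blue, for fresh IP, frozen IP and supernatant; points are libraries and lines are means of 3. Rad51b, Dlgap2, Celf2 and Pcdh11x were higher and Erbb4, Pkhd1, Wwox and Fhit lower in fasted than in fed IP of both preparations, with no overlap between groups.

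Of the enzyme genes Wwox and Fhit fell in both preparations. Wwox had 1263, 1092 and 1445 CPM in fasted fresh IP, against 2703, 2696 and 2661 CPM in fed fresh IP. Its fed libraries were close together and stood far above the fasted ones. The change of Wwox was -1.07 ± 0.12 in fresh IP (adjusted p = 0.0036) and -1.03 ± 0.11 in frozen IP (adjusted p = 0.0043). Fhit had 517, 523 and 803 CPM in fasted and 1335, 1484 and 1029 CPM in fed fresh IP. Its change was -1.04 ± 0.26 (adjusted p = 0.014) and in frozen IP -1.23 ± 0.26 (adjusted p = 0.009), and without fasted fresh IP library A the adjusted p was 0.0607. Cpq, a secreted carboxypeptidase, was the third of 14 tested enzymes and transporters called lower in fresh IP, at -0.63 ± 0.12, and none was higher (median -0.44). The same list had 3 lower and 0 higher of 14 in frozen IP (median -0.42). Cpq lost its fresh IP call in several fits with 1 library left out, with an adjusted p of 0.0568 without fasted library A. Dpyd and Immp2l, the most abundant of all, had changes of 0.03 ± 0.16 and -0.08 ± 0.14 (adjusted p = 0.92 and 0.76).

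Signalling and cytoskeletal genes moved in the same direction where they were called. Of 6 GTPase regulators 2 fell in each preparation (median -0.44 in fresh and -0.63 in frozen IP). Elmo1, the partner of DOCK proteins in activating Rac, had 66.6, 54.2 and 39.1 CPM in fasted and 184, 190 and 110 CPM in fed fresh IP, a change of -1.57 ± 0.34 (adjusted p = 0.0056). Arhgap6, a GTPase-activating protein encoded on the X chromosome, had 439, 443 and 437 CPM in fasted and 772, 906 and 770 CPM in fed fresh IP, a change of -0.87 ± 0.08 (adjusted p = 0.0036). In both genes the fasted libraries lay below every fed one. Among the receptor phosphatases Ptprd changed by -0.51 ± 0.11 (adjusted p = 0.035) and Ptprk by -0.46 ± 0.05 (adjusted p = 0.032). Each of these calls was lost in 5 of 6 fits with 1 library left out (adjusted p = 0.131 and 0.106 without fasted library A). Syt1 fell by 0.95 on the log2 scale, its change being -0.95 ± 0.18 (adjusted p = 0.0061), and was the only one of 9 cytoskeleton and traffic genes called.

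Transcription regulators had 1 higher and 2 lower of 11 in fresh IP (median -0.40) and 3 lower in frozen IP (median -0.49). Dach2, a dachshund family cofactor, was faint at 0.330, 0.388 and 0.296 CPM in fasted and 1.07, 0.704 and 0.929 CPM in fed fresh IP, a change of -1.39 ± 0.19 (adjusted p = 0.018). Sox6, a high-mobility-group factor, changed by -0.45 ± 0.09 in fresh IP (adjusted p = 0.038) and by -0.49 ± 0.08 in frozen IP (adjusted p = 0.037). Both Sox6 calls were lost in several fits with 1 library left out. The adjusted p was 0.133 without fasted fresh library B and 0.117 without fasted frozen library A. Zbtb20 had 2663, 2536 and 3003 CPM in fasted and 4211, 3978 and 3294 CPM in fed fresh IP, which do not overlap, yet its change of -0.46 ± 0.13 was not called (adjusted p = 0.065). In frozen IP it was called at -0.56 ± 0.12 (adjusted p = 0.046), but not without fasted frozen library A (adjusted p = 0.142) and in other such fits. Smyd3, a lysine methyltransferase gene with no overlapping gene in either annotation, had 274, 275 and 291 CPM in fasted and 473, 455 and 455 CPM in fed fresh IP, a change of -0.70 ± 0.03 (adjusted p = 0.0045). It held in every fit with 1 library left out, as it did in frozen IP (-0.70 ± 0.05).

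Several of the larger falls were of faint genes. Sorcs3, a sorting receptor of neurons, changed by -2.08 ± 0.58 (adjusted p = 0.031) with 0.275, 0.155 and 0.395 CPM in fasted and 0.515, 1.19 and 1.73 CPM in fed fresh IP. Malrd1, known in mice for control of Fgf15 and bile acids, changed by -1.73 ± 0.43 (adjusted p = 0.019). Both lost the call without fasted library A, at adjusted p of 0.101 and 0.0751. Dach2 without that library had 0.0776. The netrin-G ligand Lrrc4c at -1.10 ± 0.33, the synaptic calsyntenin Clstn2 at -1.06 ± 0.29 and the sodium pump partner Nkain2 at -1.10 ± 0.41 were called at adjusted p of 0.027, 0.03 and 0.038, and each lost the call in 4 of 6 fits with 1 library left out. 1700112E06Rik, which is not faint, being in the class of 100 CPM or more in fresh IP, changed by -1.19 ± 0.36 (adjusted p = 0.018).

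The other role lists stand beside 25.1% called over all genes in fresh IP and 22.6% in frozen IP. Synaptic and neural adhesion genes had 0 higher and 1 lower of 21 in fresh IP (median -0.18) and 3 lower of 22 in frozen IP (median -0.33). Ion channels and partners had 1 lower of 10 in fresh IP (median -0.59) and 1 higher and 1 lower of 12 in frozen IP (median -0.54). Proteoglycans, matrix and large surface proteins had 1 lower of 8 in fresh and 2 of 8 in frozen IP (medians -0.37 and -0.75). Scaffold proteins had 1 higher of 10 in each, namely Dlgap2 (medians -0.03 and -0.22). Cadherins and catenins had 1 higher of 7 in fresh IP, and 1 higher and 3 lower in frozen IP. Axon guidance genes had 0 of 5 called in fresh IP and 2 lower in frozen IP, Robo2 and Sema6d. None of 3 neurotransmitter receptors was called in either preparation. Kinases, phosphodiesterases and lipid signalling had 0 of 6 called in fresh IP and Inpp4b lower in frozen IP. The 34 tested genes of no list had 2 higher and 6 lower in fresh IP (median -0.35).

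In frozen IP, 5 of 157 genes tested were higher and 32 lower in fasted livers, a share of 23.6%, of 3.18% and 20.4% by direction. Over all 12926 genes tested, 22.6% were called, 11% higher and 11.6% lower. The median change was -0.38 for the set and 0.01 for all genes, and 35 of the 157 genes had a positive change. Of 150 genes tested in both preparations, 22 were called in both, 4 higher and 18 lower, none in opposite directions, with 4 called in fresh IP only and 15 in frozen IP only. The 2 preparations share their animals, so this overlap is not a second experiment. Genes called in frozen IP only include Pcdh15, a cadherin of hair cells, at -1.63 ± 0.15 (adjusted p = 0.0085) with 0.451, 0.471 and 0.462 CPM in fasted and 1.20, 1.74 and 1.45 CPM in fed livers. Of the 37 calls, 19 held whichever library was left out, and without fasted frozen library A the count was 22.

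The interaction test found no gene whose fasting response differed between frozen and fresh IP, 0 of 166 in the set and 0% of 13162 in all. At an unadjusted p under 0.05 there were 0 in the set and 43 in all with edgeR. DESeq2 gave 0 after adjustment and 1 in the set and 57 in all before it. With the mouse as a block edgeR gave 0 after adjustment and 4 in the set and 278 in all before it.

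In IP the median fasting change was lowest in the class of the longest genes. In fresh IP the median fasting change was 0.09 for genes under 10 kb, 0.01 from 10 to 50 kb, -0.01 from 50 to 100 kb, -0.06 from 100 to 250 kb, -0.08 from 250 to 500 kb and -0.30 for genes of 500 kb or more. In frozen IP the same classes had 0.12, 0.02, -0.05, -0.10, -0.18 and -0.37. Supernatant showed no such order, with -0.00, 0.01, 0.00, 0.01, 0.06 and -0.02. The share called higher in fresh IP was 13.7, 13.1, 10.4, 10.6, 11 and 3.77% by class, and the share called lower 9.3, 14.2, 12.4, 13.1, 12.7 and 13.2%. The longest class here has 193 genes, as it includes the 6 left out elsewhere. Genes are not replicates of a condition, so these medians describe the table and carry no test.

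**Figure D3:**
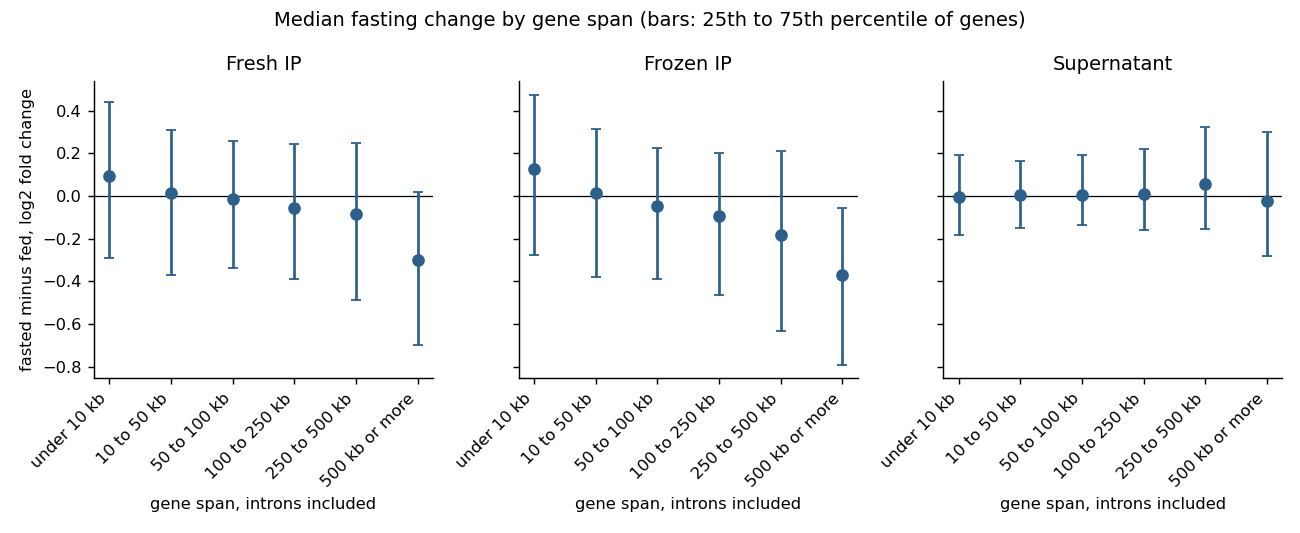
Median log2 fasting change (fasted minus fed) of all tested genes in 6 classes of gene span, with bars from the 25th to the 75th percentile of genes, in fresh IP, frozen IP and supernatant. The median runs from 0.09 under 10 kb to -0.30 at 500 kb or more in fresh IP and from 0.12 to -0.37 in frozen IP, and stays between -0.02 and 0.06 in supernatant.

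Within the set the shift was not ordered by length. Genes of 500 to 750 kb had a median change of -0.35 in fresh IP with 4 higher and 13 lower of 79, those of 750 kb to 1 Mb -0.19 with 2 higher and 1 lower of 34, and those of 1 Mb or more -0.39 with 0 higher and 6 lower of 41. Frozen IP gave -0.42, -0.18 and -0.49 for these classes, with 0 higher and 11 lower of 41 in the longest. By level in fresh IP, the median was -0.38 under 10 CPM, -0.20 from 10 to 100 CPM and -0.19 at 100 CPM or more, where 3 genes were higher and 13 lower of 46. Of the 5 longest genes Ptprd was called, and Dmd (dystrophin), Cntnap2, Lrp1b and Macrod2 had changes of 0.00 ± 0.15, -0.15 ± 0.30, 0.03 ± 0.22 and -0.20 ± 0.17.

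The 52 genes higher in IP had a median fasting change of -0.15 in fresh IP, with 3 higher and 11 lower, and all 6016 genes higher in IP one of 0.06, with 15.9% higher and 14.8% lower. The 83 tested genes lower in IP had a median of -0.38, with 2 higher and 7 lower, against -0.10 for all 4430 such genes. Frozen IP gave -0.20 and -0.46 for the set's genes, with 3 higher and 12 lower of 52 and 1 higher and 19 lower of 87. Summed levels of markers of other cell types were as follows. The summed level of the 12 endothelial markers was 40.2 to 89.97 CPM in fasted and 72.0 to 144 CPM in fed fresh IP, and of the 10 stellate and fibroblast markers 51.8 to 72.1 CPM and 73.9 to 137 CPM. In frozen IP they were 128 to 189 and 211 to 299 CPM, and 55.1 to 68.4 and 83.6 to 127 CPM, for fasted and fed. No marker of these lists had 0 counts in a group. Of the endothelial markers 0 of 12 were called in fresh IP (median -0.62) and 1 higher and 5 lower in frozen IP, and of the stellate markers 1 was lower of 9 in fresh and 5 lower of 10 in frozen IP. The 10 Kupffer cell and macrophage markers summed to 112 to 173 CPM in fasted and 145 to 213 CPM in fed fresh IP, and the 10 lymphocyte markers to 339 to 360 CPM and 305 to 429 CPM. Fasted and fed libraries overlapped in fresh IP for the endothelial, Kupffer cell and lymphocyte lists and not for the stellate list. Most of the lymphocyte sum was Bach2, with means of 339 CPM in fasted and 340 CPM in fed fresh IP. Most of the Kupffer cell sum was Mertk, at 132 and 164 CPM, so these 2 sums say little of the other markers. Of 9 tested Kupffer cell markers 1 was called higher and 0 lower (median -0.06). Of 6 tested lymphocyte markers 1 was called higher and 0 lower (median -0.58). The part of nuclei of other cell types in the changes of genes lower in IP was not tested.

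In supernatant the number of these genes that changed with fasting depended on the test. Of 163 genes tested 3 were higher and 3 lower, a share of 3.68%, against 6.22% of 13921 genes in all, 3.38% higher and 2.84% lower. The medians were -0.03 and 0.00. With total counts as library size the split was 6 higher and 2 lower, with 838 of 13921 genes called in all. DESeq2 called 34 of 187, 21 higher and 13 lower, and 1871 of 16900 in all, so that the set's share was above that of the table with DESeq2 and below it with edgeR. At an unadjusted p under 0.05 edgeR's test gave 50 of 163 genes of the set and 3221 of 13921 in all, again a larger share in the set. The count was 2 without fed supernatant library B and 10 without fasted library C.

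Edil3, a secreted integrin-binding protein of vessels (chromosome 13, 88821472 to 89323225, plus strand), had the largest rise. It had 24.2, 25.6 and 27.8 CPM in fasted supernatant, against 4.48, 5.08 and 1.44 CPM in fed supernatant, and under 1 CPM in every IP library. The groups lie far apart, and the change was 2.82 ± 0.57 (adjusted p = 0.0094). Endothelial markers summed to 3554 to 4794 CPM in fasted and 2864 to 3757 CPM in fed supernatant, with 2 of 12 higher and 0 lower, and their part in the rise was not tested. Macrod2, an ADP-ribose hydrolase, had 38.2, 50.2 and 58.5 CPM in fasted and 29.1, 22.0 and 22.9 CPM in fed supernatant, a change of 0.997 ± 0.22 (adjusted p = 0.02). Pcdh9, a protocadherin, changed by 1.25 ± 0.26 (adjusted p = 0.017). Dcc, the netrin receptor, changed by -1.26 ± 0.21 (adjusted p = 0.013), with 4.30, 3.97 and 3.46 CPM in fasted and 9.64, 11.5 and 7.25 CPM in fed supernatant, and Nkain2 by -0.71 ± 0.21 (adjusted p = 0.047). Rad51b was lower in fasted supernatant, the reverse of its direction in IP, at 75.9, 92.1 and 77.9 CPM against 117, 146 and 112 CPM in fed supernatant, a change of -0.60 ± 0.15 (adjusted p = 0.035). Only Edil3 and Dcc of these 6 kept the call whichever library was left out. Macrod2 and Pcdh9 had adjusted p of 0.0747 and 0.0661 without fed library C, and Nkain2 and Rad51b 0.154 and 0.127 without fasted library A.

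The difference of the fasting response between fractions was tested as an interaction. Of 173 genes 2 had a higher and 13 a lower response in IP than in supernatant, a share of 8.67%, against 9.54% of 14322 genes in all, 3.71% higher and 5.83% lower. The median difference was -0.39 for the set and -0.08 for all genes. Rad51b led at 2.74 ± 0.37 (adjusted p = 0.0013), and Celf2 was the other gene with a higher response in IP, at 1.18 ± 0.22 (adjusted p = 0.008), its supernatant levels of 731, 758 and 760 CPM in fasted and 710, 868 and 724 CPM in fed livers overlapping. Smyd3 at -0.94 ± 0.05 (adjusted p = 0.0013), Wwox at -1.04 ± 0.12 (adjusted p = 0.002) and Fhit at -1.74 ± 0.32 (adjusted p = 0.0036) had lower responses. For Wwox the supernatant held 833, 768 and 818 CPM in fasted and 860, 883 and 833 CPM in fed livers, which meet at 833 CPM. For Fhit it held 166, 130 and 189 CPM in fasted and 96.4, 97.9 and 119 CPM in fed livers, higher in fasted with no overlap but not called by itself (0.64 ± 0.19, adjusted p = 0.052). The list of enzymes and transporters had 5 lower of 14 (Fhit, Wwox, Macrod2, Park2 and Hpse2), and the GTPase and transcription regulators 2 lower each. Zbtb20 and Auts2, a Polycomb partner in neurons, lost the call with the mouse as a block (adjusted p = 0.0879 and 0.0814), as did Park2, the ubiquitin ligase parkin (0.0624). Erbb4 and Pkhd1, both called in IP, had differences of -0.75 ± 0.33 and -1.22 ± 0.56 that were not called (adjusted p = 0.14 and 0.12), and their supernatant levels were a small part of those in IP.

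**Figure D4:**
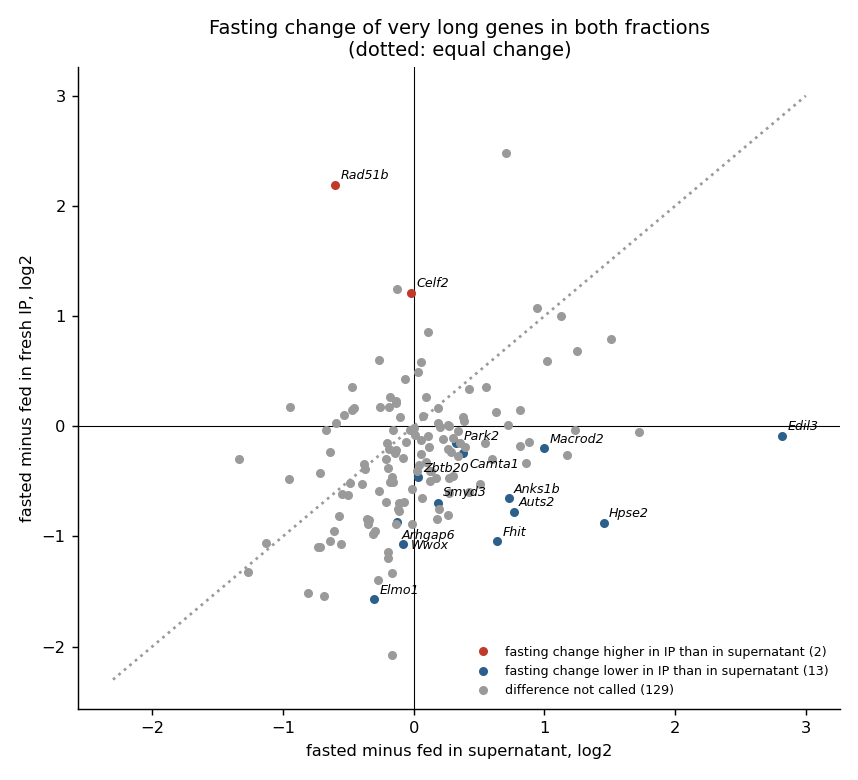
Log2 fasting change in fresh IP (vertical) against that in supernatant (horizontal) for the 144 very long genes tested in both, with genes whose change differed between fractions in red (2, higher in IP) and blue (13, lower in IP). Rad51b stands at 2.19 in IP and -0.60 in supernatant, and Edil3 at -0.08 and 2.82.

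A subset of these genes was higher in IP from frozen than from fresh liver. Of 166 genes tested 21 were higher and 0 lower in frozen than in fresh IP, a share of 12.7%, against 5.16% of 13162 genes in all, 4.72% higher and 0.441% lower. This was not particular to the set. Genes of 250 to 500 kb had 16% higher and 0 lower (median 0.10), and those of 100 to 250 kb 10.2% higher and 0 lower (median 0.05). The median difference was 0.12 for the set and -0.02 for all genes, and 128 of the 166 genes had a positive difference. With the mouse as a block, which the design allows, 42 of the 166 were called, again all higher, and 2168 of the 13162 genes in all, against 679 without the block. Hdac9 led at 2.24 ± 0.31 (adjusted p = 0.0017), with 13.3, 9.79 and 11.6 CPM in fasted and 13.2, 47.1 and 16.2 CPM in fed frozen IP, against the 2.94 to 4.37 CPM in fresh IP given above. All 6 frozen libraries exceeded all 6 fresh ones. March1 at 1.99 ± 0.29, Dock2 at 1.94 ± 0.28, Mctp1 at 1.88 ± 0.19, Arhgap15 at 1.85 ± 0.30 and Slc9a9 at 1.79 ± 0.24 followed, with adjusted p of 0.0029 or less. Cdh13, a cadherin that binds adiponectin, was at 1.72 ± 0.29, Inpp4b at 1.53 ± 0.23 and Ptprm at 1.51 ± 0.25, with adjusted p of 0.003 or less. These values are small next to supernatant levels, Slc9a9 having 30.9, 25.6 and 26.0 CPM in fasted and 37.3, 73.3 and 38.5 CPM in fed frozen IP, against 1986 to 2672 CPM in supernatant.

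All 21 genes higher in frozen IP are among the 91 tested genes of the set that were lower in IP than in supernatant, which is 23.1% of them, against 12.3% of the 4902 such genes in all. Of the 52 genes of the set higher in IP 0 were called, against 6 of 6016 in all. This split is of the fit without the mouse as a block. The 42 genes called with the block were not split in this way. Dpyd and Erbb4 had differences of -0.04 ± 0.10 and -0.05 ± 0.13. By level in fresh IP, 16 of 93 genes under 10 CPM were called, 4 of 27 from 10 to 100 CPM and 1 of 46 at 100 CPM or more, the last being 1700112E06Rik at 0.68 ± 0.20 (adjusted p = 0.044), which lost the call in 7 of 12 fits with 1 library left out. The sum of endothelial markers was 128 to 299 CPM in frozen and 40.2 to 144 CPM in fresh IP over both feeding states, and 11 of the 12 were called higher (median 1.20). Of the Kupffer cell and macrophage markers 6 of 10 were higher (median 1.83), of the lymphocyte markers 4 of 9 (median 1.07), of the stellate markers 3 of 10, of the hepatocyte markers 0 of 14 (median -0.08) and of the cholangiocyte markers 0 of 7. Lama2, a laminin chain, is both a stellate marker and 1 of the 21 genes. The part of other nuclei in these differences was not tested. Fed frozen library B, the shallowest at 13828945 counts, was the highest in Hdac9, Dock2, Slc9a9 and Ptprm, and without it their differences were 1.85, 1.67, 1.60 and 1.22 and 15 genes were called.

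**Figure D5:**
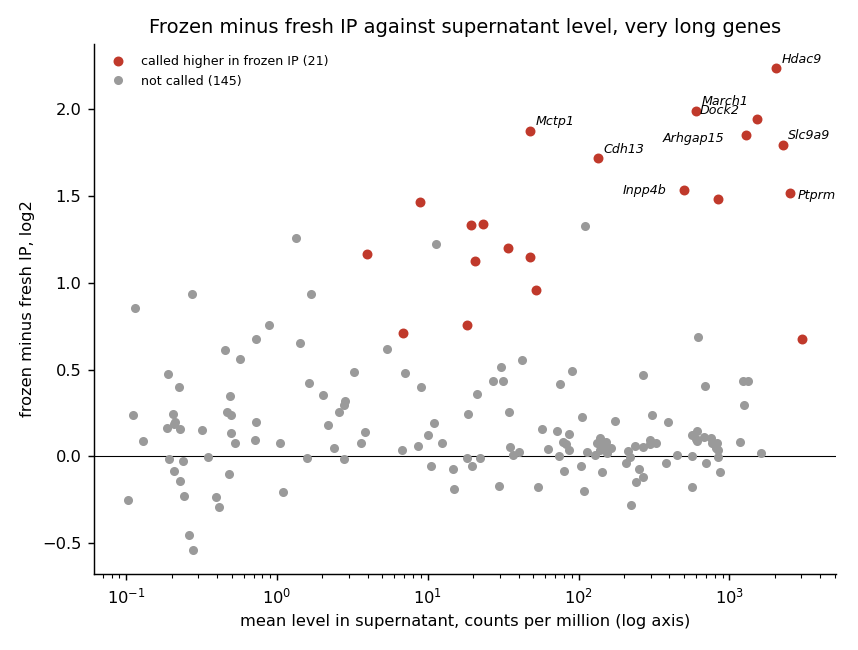
Log2 difference between frozen and fresh IP (vertical) against the mean supernatant level in CPM (horizontal, log axis) for the 166 very long genes tested, with the 21 called higher in frozen IP in red. Called genes include Hdac9 at 2.24, Dock2 at 1.94 and Slc9a9 at 1.79.

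Genes of transcription elongation and topoisomerases were examined as a list of 54, none of them very long. The list is not limited to factors that promote elongation. In fresh IP 9 were higher and 5 lower in fasted livers (median 0.18), in frozen IP 8 and 5 (median 0.22) and in supernatant 3 and 1 (median 0.01), against the 25.1%, 22.6% and 6.22% called over all genes. Top1, topoisomerase I, changed by 0.71 ± 0.20 in fresh IP (adjusted p = 0.022), with a mean of 239 CPM in fasted and 147 CPM in fed livers, by 0.58 ± 0.12 in frozen IP (adjusted p = 0.02) and by 0.45 ± 0.02 in supernatant (adjusted p = 0.013). Also higher in fresh IP were Ell2 at 0.81 and Cdk9 at 0.59, an elongation factor and the kinase of P-TEFb, with Aff4, Xrn2, Ccnt1, Tcea1, Cdc73 and Nelfa at 0.53 to 0.36. Lower were Ell3 at -2.91, Top2a, the topoisomerase of dividing cells, at -2.66, Tcea3 at -1.68, Tdp2 at -0.74 and Aff1 at -0.61. Ell3 and Top2a were faint, with means of 0.175 and 0.138 CPM in fasted and 1.38 and 0.965 CPM in fed fresh IP. Top2a had 6.66 CPM in fasted and 16.0 CPM in fed supernatant. No relation between these genes and the very long ones was tested.

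The authors' deposited table of fasting comparisons gave adjusted p for 185 of the 187 genes, with 6 higher and 41 lower in fresh IP and 5 higher and 49 lower in frozen IP. Of the calls made here, 24 of 26 in fresh IP and 37 of 37 in frozen IP were also called in the authors' deposited table, in the same direction. The other 2, Foxp2 and Grip1, had changes of 0.52 and 0.73 in the authors' deposited table, with adjusted p of 0.0932 and 0.0875.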

How the data were processed

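Nuclear RNA of 18 libraries from 6 mice was analysed, 3 libraries for each of 6 groups. The authors deposited 1 table of raw counts per gene on mm10, with the span of each gene, and a table of their own fasting comparisons as log2 fold changes and adjusted p-values. Per the labels' protocols, total RNA was used without selecting polyadenylated transcripts, and the library kit keeps strand. STAR 2.4.2a and DESeq2 1.24.0 are named in the submitters' processing notes. The counting tool, the feature counted and the strand setting are not given in the sources used here. The count table has 6 further columns of no sample in the labels, which were not used.

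Tests used edgeR 4.0.16 (glmQLFit and glmQLFTest, limma 3.58.1, R 4.3.3) on the deposited counts of all genes, with TMM factors, filterByExpr and a Benjamini-Hochberg adjusted p under 0.05 over all genes tested. A log2 change is that of edgeR's fit, with its default prior count. The log2 CPM used for the SE had a prior count of 2, so change and SE are not on the same scale for faint genes. The SE belongs to the log2 CPM contrast between groups and takes libraries as independent, although the 3 kinds of library share mice. Fasting was tested within each kind of library, and the 2 interactions over the groups concerned. The tests were checked on simulated counts. DESeq2 1.42.0, other scalings, other low-count filters, a block for the mouse and leaving out each library in turn were alternatives.

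Sample titles give the mouse of each library, but the count table marks libraries by letters A to C that no label holds. The letters were taken to pair libraries of 1 mouse after this check. For libraries of the same letter, deviations from group means had a correlation of 0.417 to 0.776 for the fresh with the frozen IP, of 0.152 to 0.386 between fresh IP and supernatant and of 0.186 to 0.428 between supernatant and frozen IP, over genes of at least 3 CPM. Different letters gave -0.535 to 0.0151. No libraries agreed within sampling noise, the lowest chi-square per gene between replicates being 16.7. Fasted and fed libraries come from different mice, so no block applies to a fasting comparison within 1 kind of library. The library number of 1 fed frozen IP sample stands apart from the others in its title, and the labels do not give its letter.

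The members and gene lists were chosen with earlier results of these data known. Genes are named if they are among the 8 highest per kb in a fraction, the 8 largest called changes in each direction of a comparison, called in an interaction (at most 8), the 5 longest, the 2 brightest of each role list or the 3 brightest called with fasting. Other called genes were named after their values were seen. Values of a few genes are not reported here.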

Additional observations from a re-analysis of the deposited data

Results flagged for a closer look

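The fasting response (fasted minus fed, log2) differed between fresh IP and supernatant in 15 of the 173 very long genes tested, by the interaction test of edgeR. It was higher in IP for Rad51b, by 2.74 ± 0.37 (SE, adjusted p = 0.0013), and for Celf2, by 1.18 ± 0.22 (adjusted p = 0.008).

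Enzyme genes with a lower response in IP were Fhit at -1.74 ± 0.32 (adjusted p = 0.0036), Wwox at -1.04 ± 0.12 (adjusted p = 0.002), Macrod2 at -1.26 ± 0.28 (adjusted p = 0.0096), Park2 at -0.54 ± 0.09 (adjusted p = 0.028) and the heparanase relative Hpse2 at -2.37 ± 0.48 (adjusted p = 0.016). For Hpse2 the supernatant had 6.91, 7.62 and 16.5 CPM in fasted and 4.48, 3.999 and 2.88 CPM in fed livers.

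Regulators with a lower response in IP were Smyd3 at -0.94 ± 0.05 (adjusted p = 0.0013), the calmodulin-binding factor Camta1 at -0.67 ± 0.10 (adjusted p = 0.012), Zbtb20 at -0.55 ± 0.14 (adjusted p = 0.046) and Auts2 at -1.59 ± 0.54 (adjusted p = 0.048). Camta1 had 309, 300 and 289 CPM in fasted and 253, 238 and 206 CPM in fed supernatant, and 96.3, 99.8 and 99.4 CPM in fasted and 112, 118 and 124 CPM in fed fresh IP. Its fasted libraries thus lay above the fed ones in supernatant and below them in fresh IP, without overlap in either. Neither of these 2 changes of Camta1 was called by itself.

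The remaining ones were Edil3 at -3.01 ± 0.71 (adjusted p = 0.016), Anks1b, a postsynaptic protein, at -1.44 ± 0.32 (adjusted p = 0.025), Elmo1 at -1.32 ± 0.37 (adjusted p = 0.026) and Arhgap6 at -0.80 ± 0.19 (adjusted p = 0.02). Of the 15, 8 held whichever of 12 libraries was left out (Camta1, Celf2, Fhit, Hpse2, Macrod2, Rad51b, Smyd3 and Wwox). Edil3 lost the call only without fed fresh IP library A (adjusted p = 0.0598), and Auts2, Park2 and Zbtb20 in 9, 8 and 10 of 12 fits.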

How the results depend on the processing

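Leaving out 1 library gave 13 to 26 called genes in fresh IP, 22 to 32 in frozen IP, 2 to 10 in supernatant, 149 to 154 between IP and supernatant, 15 to 23 between frozen and fresh IP and 9 to 17 in the interaction of fasting with fraction. The medians of the set then ran from -0.40 to -0.25 in fresh IP, from -0.46 to -0.24 in frozen IP and from -1.30 to -1.09 between IP and supernatant. DESeq2 called 34 genes in supernatant. With a replicate block 42 genes were called between frozen and fresh IP, and in the interaction of fasting with fraction Sox6 was added at -0.79 (adjusted p = 0.0491). The median of IP minus supernatant was -1.58 with total counts, -0.99 with DESeq2, -0.89 with no filter on low counts and -1.94 with a mean of at least 1 CPM. With total counts the result of Vps13b, IP minus supernatant, reversed to -0.0203 (adjusted p = 0.763). Without the 100 most abundant genes of each library, the share of counts in these genes was 1.75% in fasted and 1.63% in fed fresh IP. Frozen IP gave 1.75% and 1.81%, and supernatant 2.39% and 2.56%. With a span minimum of 750 kb the share was 2.405% and 2.71%, 2.37% and 2.87%, and 1.98% and 1.96%. The cause of these changes was not tested. Of results for single named genes, 5589 stayed called or stayed uncalled when 1 library was left out, 227 lost the call and 46 gained it. The 5589 can include changes of direction in genes called in neither fit.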
